A study of Mus musculus with 14 samples.

Results

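The genes described here are 10 neuropeptides, ion channels, receptors and enzymes that mark the subtypes of nociceptors and other unmyelinated sensory neurons: Calca, Calcb, Tac1, Sst, Trpv1, Trpa1, Trpm8, P2rx3, Mrgprd and Th. They were chosen by symbol, and all 10 were found among the 24062 genes of the count table. The study compared bulk RNA of plexiform neurofibromas (PNs), tumors of the peripheral nerve sheath, with normal dorsal root ganglia (DRGs), and asked which transcripts change as PNs form and grow. RNA-seq counts were available for 14 libraries: 3 control DRGs with their nerves (DRG3, DRG4 and DRG5), 5 slow-growing PNs (1079, 1198A, 1202, 1203 and 1206) and 6 fast-growing PNs (1053, 1071, 1179, 1191, 1214 and 1216). Controls carried Nf1 fl/fl alleles without Cre, and PN mice carried DhhCre as well as Nf1 fl/fl. All mice were on a mixed C57BL/6, I-129 and FVBN background, received no drug and were 9 months old at collection. A PN was called slow-growing when its volume changed by less than 5 mm3, and fast-growing when it gained more than 35 mm3, over the 2 months between MRI scans at 7 and 9 months.

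Dorsal root ganglia hold the cell bodies of sensory neurons, and most neuronal mRNA lies in the cell bodies; a piece of nerve without a ganglion is largely axons, Schwann cells and stroma. Nociceptors fall into peptidergic neurons, which release CGRP and substance P, and nonpeptidergic neurons, which carry P2X3 and Mrg receptors; C-low-threshold mechanoreceptors are marked by tyrosine hydroxylase. In this model Cre is driven by the Dhh promoter in the Schwann cell lineage, so Nf1 stays intact in the neurons themselves, and PNs form around the ganglia. The libraries are whole tissue: fewer neurons and less RNA per neuron cannot be told apart in them.

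Total counts on genes ran from 9596773 to 12403819 in controls, from 9900759 to 13439253 in slow-growing PNs, and from 12159630 to 17594164 in fast-growing PNs. A count of 3, taken as the floor, corresponds to between 0.167 and 0.313 CPM, counts scaled to a common library total, and covers counting error only. Nf1 itself lay at 129 to 227 CPM in controls and at 225 to 294 CPM in PNs; counts over the whole gene from whole tissue do not check a deletion in 1 cell lineage. Fast-growing PN 1191 stood apart from the other 13 libraries: 12 pan-neuronal genes (Tubb3, Snap25, Stmn2, Uchl1 and the like) summed to 50.6 CPM in it and to between 1605 and 13140 CPM elsewhere. Whether the sample of 1191 held a ganglion is not given in the sources used here. The comparisons with fast-growing PNs are therefore given with and without it. The control libraries held more muscle and fat RNA, with 10 skeletal muscle genes summing to 3360 to 13700 CPM in controls, 16.7 to 3230 CPM in slow-growing PNs and 55.9 to 2020 CPM in fast-growing PNs, and 10 fat genes summing to 3760 to 5450, 15.8 to 3060 and 16.9 to 268 CPM; their part in the results below was not tested beyond a fit with both scores as covariates. Both sums were higher in each control than in each PN, so such a fit against controls can hardly separate the groups from these scores. Lists of markers of other neurons were mixed. The 10 sympathetic genes summed to 25.1 to 34 CPM in controls, 25.6 to 58.1 in slow-growing and 28 to 39.1 CPM in fast-growing PNs; Phox2a had no count and Hand1 and Hand2 stayed under 1 CPM in each library, while Slc18a2, Slc6a2 and Chrna3 reached 21.8, 19.4 and 30.3 CPM. The 4 motor neuron genes summed to at most 5.49 CPM, nearly all of it Slc5a7. The 8 spinal cord genes summed to 18.4 to 37.5, 21.3 to 58.6 and 13 to 39 CPM, with Slc32a1 and Slc6a5 near 0, Slc1a2 up to 35.2 and Aqp4 up to 20.9 CPM, and Gad2 higher in PNs (4.76 to 6.46 CPM) than in controls (1.2 to 2.38 CPM). Their part in the results was not tested.

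The bases before the transcription start are shown for 5 members, Calca, Mrgprd, Sst, Th and Trpv1, to give the sequence context of these genes; no value below bears on the motifs. The sequences are RefSeq's, on GRCm38.p6 (mm10), and 7 of the 10 members had one. The 250 bases before Calca (chr7:114636358-114636607, minus strand) hold TGACG, in capitals, the half-site of the cAMP response element, 65 bases before the start, and those before Mrgprd (chr7:145314585-145314834, plus strand) hold none of the 3 motifs searched. Tac1 carries the half-site as well, at 43 and 197 bases before the start on the opposite strand, and the windows at both sites overlap annotated exons in GENCODE.

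Calca: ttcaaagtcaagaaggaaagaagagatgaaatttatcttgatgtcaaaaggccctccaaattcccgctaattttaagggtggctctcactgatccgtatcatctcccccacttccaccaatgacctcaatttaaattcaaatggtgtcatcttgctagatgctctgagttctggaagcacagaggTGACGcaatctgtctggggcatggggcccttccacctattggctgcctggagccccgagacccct

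Mrgprd: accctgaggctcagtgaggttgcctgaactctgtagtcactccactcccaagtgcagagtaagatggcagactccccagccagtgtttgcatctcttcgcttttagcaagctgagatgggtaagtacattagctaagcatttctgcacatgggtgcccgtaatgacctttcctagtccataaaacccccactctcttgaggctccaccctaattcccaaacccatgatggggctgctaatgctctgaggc

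The full cAMP response element TGACGTCA lay before Sst and Th, at 48 and 45 bases before the start. It is shown in capitals within windows of 30 bases, chr16:23890874-23890903 (minus strand, within an annotated exon in GENCODE) for Sst and chr7:142900022-142900051 (minus strand) for Th. The RUNX core TGTGGT, a motif of the RUNX factors, lay 50 bases before the start of Trpv1, in the window chr11:73234087-73234116 (plus strand).

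Sst: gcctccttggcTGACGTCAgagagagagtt

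Th: cagaggggcttTGACGTCAgcctggccttt

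Trpv1: tggggcattggcTGTGGTttctgaaaaagg

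Counting both strands of all 32851 upstream regions of 250 bases, 1.55% held TGACGTCA, 17.8% held TGACG (which every TGACGTCA contains) and 14.05% held TGTGGT. A match is a run of letters and not a measured binding site.

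Levels per kilobase of the longest annotated transcript spanned a wide range among the members. Averaged over all 14 libraries, Calca, which encodes calcitonin and, by alternative splicing, α-CGRP, was at 432 CPM per kb, higher than 99.8% of detected genes. P2rx3, the ATP-gated channel subunit of nociceptors, followed at 62.0, Tac1, the precursor of substance P, at 42.8, and Calcb, which encodes β-CGRP, at 40.1 CPM per kb. Mrgprd, a receptor of nonpeptidergic neurons, was at 17.0 and Th, the first enzyme of catecholamine synthesis, at 13.7 CPM per kb. Below these were the channels Trpa1 (irritants) at 6.78, Trpv1 (heat and capsaicin) at 4.23 and Trpm8 (cold) at 3.54 CPM per kb, and the peptide gene Sst at 2.48 CPM per kb. In controls the ranges of Calca (127 to 422) and P2rx3 (20.8 to 49.1) did not overlap, while P2rx3, Tac1 (11.8 to 39.4) and Calcb (14.8 to 47.3) overlapped. Mrgprd (3.65 to 18.1) and Th (2.89 to 8.58) overlapped as well, and Trpa1 (1.74 to 2.70), Trpv1 (1.395 to 2.68), Trpm8 (1.13 to 5.75) and Sst (0 to 1.398) overlapped from neighbor to neighbor. Gene-level counts do not separate calcitonin from CGRP transcripts, and the strand setting of the counting is not given in the sources used here: exons of Trpm8 and P2rx3 overlap those of 4930453O03Rik and Ssrp1 on the opposite strand, so some of their counts may belong to these genes. Calca and Calcb are close paralogs, and reads may have been divided between them.

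**Figure D1:**
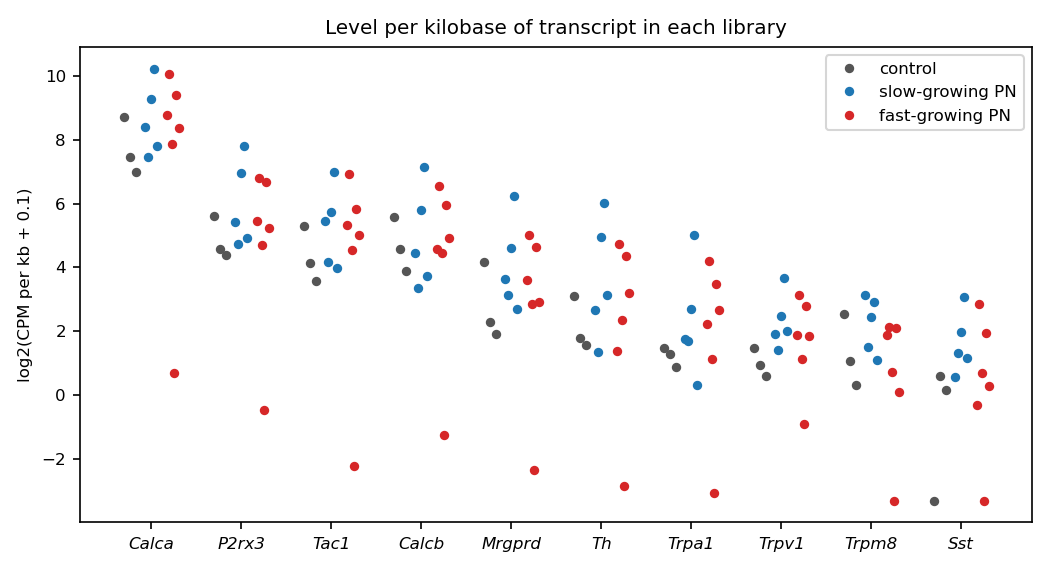
Level of each member per kilobase of transcript, as log2(CPM per kb + 0.1), in each of 14 libraries (1 point each) of the 3 groups. Calca lies above the other members, and the lowest point of each gene among fast-growing PNs is library 1191.

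The peptide genes were carried mainly by Calca. Its level was 419, 174 and 126 CPM in controls DRG3, DRG4 and DRG5, and 339, 174, 623, 1198 and 222 CPM in slow-growing PNs 1079, 1198A, 1202, 1203 and 1206. Fast-growing PNs had a lowest value of 1.51 CPM (20 counts, in 1191), a median of 386 and a highest of 1066 CPM (in 1071). The 3 groups overlapped, because DRG3 lay above several PNs and 1198A lay at the level of DRG4.

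Tac1 was at 77.8, 34.5 and 23.4 CPM in controls and 85.6, 35.02, 106, 249 and 30.9 CPM in slow-growing PNs. In fast-growing PNs its lowest value was 0.227 CPM (3 counts, in 1191), its median 71.5 and its highest 240 CPM. Calcb was at 45.5, 23.0 and 14.3 CPM in controls, at 20.9, 9.695, 53.9, 136 and 12.7 CPM in slow-growing PNs, and from 0.302 through a median of 26.2 to 90.9 CPM in fast-growing PNs. For both genes 1203 and 1071 were the highest PNs and 1191 was the lowest.

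Sst, which encodes the inhibitory peptide somatostatin and marks a class of itch neurons, was close to the detection limit. It had 0, 11 and 7 counts in controls, 13, 23, 27, 66 and 16 counts in slow-growing PNs, and 0 to 76 counts in fast-growing PNs. The 0 counts in DRG3 allow a level of up to 0.257 CPM and those in 1191 of up to 0.227 CPM, and the highest level was 6.04 CPM, in 1203.

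Among the channels, Trpv1 came nearest to a separation of slow-growing PNs from controls. It was at 9.004, 6.14 and 4.69 CPM in controls and at 12.3, 8.64, 18.3, 42.1 and 13.2 CPM in slow-growing PNs, so that 1198A alone lay below the highest control. Fast-growing PNs ran from 1.44 CPM in 1191 through a median of 11.8 to 29.4 CPM in 1071. Trpa1 was at 11.5, 9.99 and 7.40 CPM in controls, 13.8, 13.4, 27.3, 136 and 4.82 CPM in slow-growing PNs, and from 0.0756 CPM (1 count, in 1191) through a median of 23.0 to 77.8 CPM in fast-growing PNs. Its range within slow-growing PNs, from 4.82 in 1206 to 136 in 1203, enclosed every control.

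Trpm8 differed from the rest in where it peaked. It was at 23.8, 8.34 and 4.69 CPM in controls, 35.8, 11.3, 22.3, 30.6 and 8.39 CPM in slow-growing PNs, and from 0 counts in 1191 (up to 0.227 CPM) through a median of 10.6 to 17.8 CPM in fast-growing PNs. Its highest library was 1079, whereas the other 9 members were highest in 1203. No fast-growing PN reached the level of DRG3.

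The nonpeptidergic receptors P2rx3 and Mrgprd again rose and fell with Calca. P2rx3 was at 89.0, 42.9 and 37.7 CPM in controls, 78.3, 48.5, 226, 410 and 54.8 CPM in slow-growing PNs, and from 1.13 through a median of 73.2 to 203 CPM in fast-growing PNs. Mrgprd was at 56.9, 15.1 and 11.5 CPM in controls, 38.9, 27.1, 76.2, 238 and 19.95 CPM in slow-growing PNs, and from 0.302 through a median of 30.9 to 102 CPM in fast-growing PNs. For both genes the ranges of the 3 groups overlapped.

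Th, which in DRG marks C-low-threshold mechanoreceptors, had the largest spread within groups over the 13 libraries without 1191. It was at 16.7, 6.60 and 5.63 CPM in controls, 12.1, 4.74, 60.7, 125.5 and 16.9 CPM in slow-growing PNs, and from 0.0756 CPM (1 count, in 1191) through a median of 13.7 to 52.0 CPM in fast-growing PNs. Its values fell on either side of the control range in both PN groups. Of the sympathetic genes, Dbh, the enzyme that converts dopamine to noradrenaline, reached at most 2.29 CPM (in DRG5) and Hand2 at most 0.367 CPM. The noradrenaline transporter Slc6a2 had group means of 9.88, 10.6 and 7.06 CPM in controls, slow-growing and fast-growing PNs, and the vesicular monoamine transporter Slc18a2 of 13.9, 19.0 and 15.03 CPM, levels like that of Th in controls (9.65 CPM). Whether any of the Th RNA came from sympathetic neurons was not tested.

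**Figure D2:**
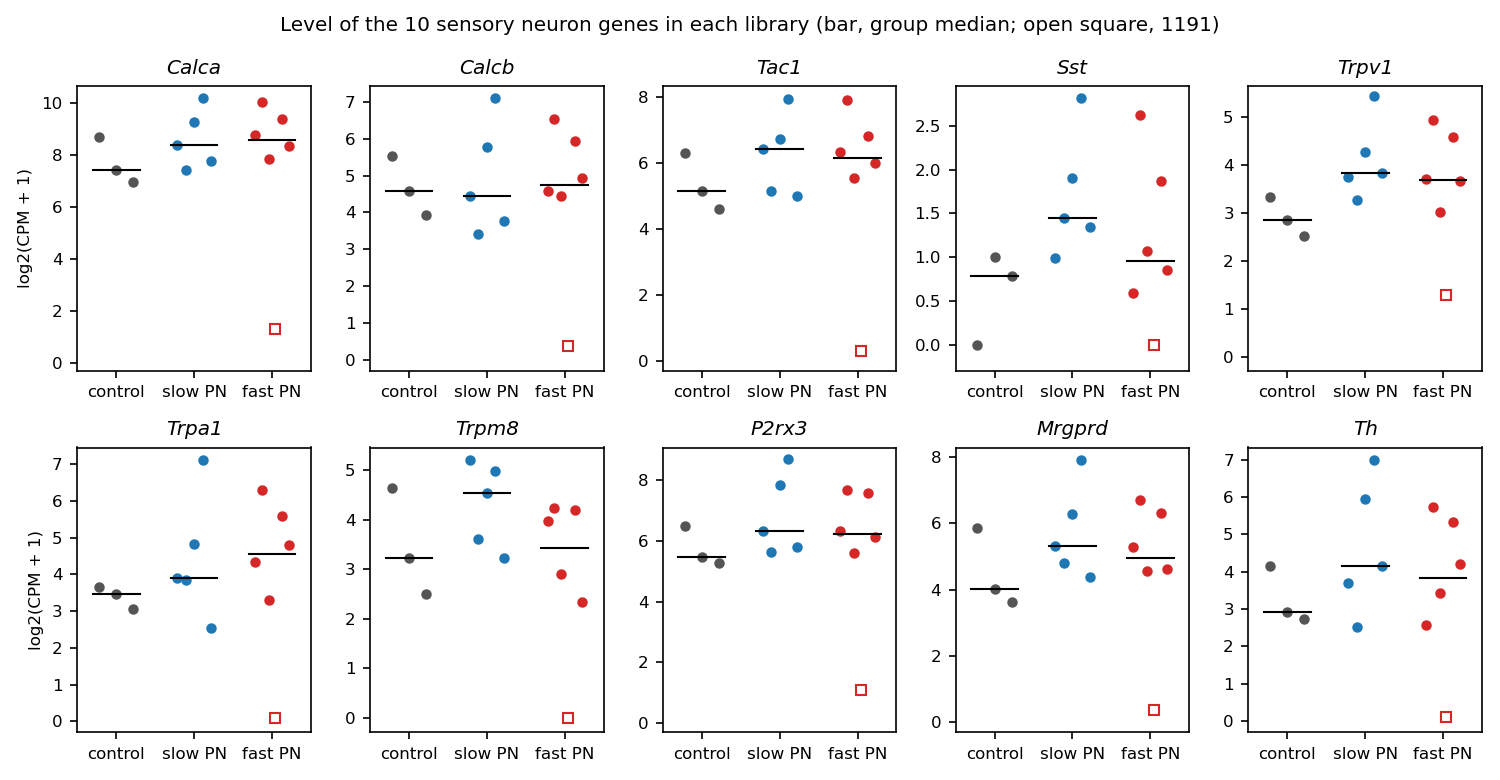
Level of each member as log2(CPM + 1) in each library, by group (3 control, 5 slow-growing PN and 6 fast-growing PN libraries; the bar is the group median and the open square is 1191). The groups overlap for every member, while 11.6% of all genes lay higher and 12% lower without overlap in slow-growing PNs against controls, and 17.8% and 14.9% in fast-growing PNs; 1191 is the lowest PN for each of the 10.

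None of the 10 members was called different between slow-growing PNs and controls by edgeR's quasi-likelihood test, at an adjusted p under 0.05 over all genes tested, while 11.3% of the 15714 tested genes were called, 4.12% as higher and 7.13% as lower. All 10 fold changes were positive, with a median log2 fold change of 1.45, beside 0.04 for all genes, of which 52.2% were positive; 12 of 12 pan-neuronal genes were positive too, with a median of 0.67. The members are not independent of one another in this count, since they share the libraries and the neurons. The largest estimates were Th at 2.11 ± 1.03 (SE; edgeR adjusted p = 0.201) and Sst at 2.08 ± 0.95 (adjusted p = 0.179). Trpv1 had the lowest p, with a log2 fold change of 1.45 ± 0.53, a 95% interval of 0.25 to 2.64 and an adjusted p of 0.111; its unadjusted p of 0.0233 was the only one of the 10 under 0.05, as against 30.3% of all genes. DESeq2 called Trpv1 (log2 fold change 1.47, adjusted p = 0.0314) and no other member, or 1 of 10, while it called 22.5% of all genes. Limma-voom called 0, and its share of all genes is not given here, so this 0 has no background beside it. For Calca the log2 fold change was 1.03 ± 0.69, with an interval of -0.53 to 2.59, and the smallest was that of Calcb, at 0.68 ± 0.86. Single libraries moved these estimates by over 1.5 times: without 1203 Calca was at 0.49, Tac1 at 0.49, Trpv1 at 0.96, Trpa1 at 0.59, P2rx3 at 0.83, Mrgprd at 0.53, Th at 1.26 and Calcb at -0.21, and without DRG3 Calca was at 1.69, Tac1 at 1.73, Trpm8 at 1.66, Mrgprd at 2.5 and Calcb at 1.23. Without DRG5 Calcb was at 0.37 and Trpm8 at 0.38. No call was made with any library left out.

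Fast-growing PNs against controls gave 0 calls among the members too, while 31.4% of the 16037 tested genes were called by edgeR in this comparison. No member passed the threshold in edgeR, DESeq2 or limma-voom, and none had an unadjusted p under 0.05 in edgeR, as 41.8% of all genes had. The shares of all genes that DESeq2 and limma-voom called in this comparison are not given here, so their 0 calls have no background. In this comparison 9 of 10 estimates were positive and the median was 0.89, beside 0.02 over all genes and 0.08 over the pan-neuronal genes, of which 7 of 12 were positive. The largest were Trpa1 at 1.55 ± 1.13 and Sst at 1.46 ± 1.28, and Trpm8 alone was negative, at -0.36 ± 1.0, a sign that turned to 0.52 without DRG3. Library 1071 and control DRG3 moved the others most: without 1071 Calca was at 0.43, Tac1 at 0.36, Trpa1 at 1.01, Trpv1 at 0.67, P2rx3 at 0.37, Mrgprd at 0.17, Th at 0.51, Sst at 0.72 and Calcb at -0.10, and without DRG3 Calca was at 1.5, Mrgprd at 1.62 and Th at 1.64. The highest estimates with 1 library left out were 1.53 for Tac1 and 1.16 for P2rx3.

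Without 1191 the standard errors became smaller and the estimates larger. Trpa1 was then 1.81 ± 0.62 higher on the log2 scale than in controls, with an adjusted p of 0.0537 by edgeR, and Trpv1 was 1.24 ± 0.46 higher, with an adjusted p of 0.0689. Calca stood at 1.12 ± 0.54 (adjusted p = 0.146) and Tac1 at 1.18 ± 0.57 (adjusted p = 0.147), while Calcb was at 0.63 ± 0.55 and Trpm8 at -0.10 ± 0.59. No member passed the threshold, with 32.1% of 15950 genes called, 17.4% as lower. Both PN comparisons share the 3 control libraries, so their signs are not independent.

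Between fast- and slow-growing PNs no member was called by edgeR's test, by DESeq2 or by limma-voom. None had an unadjusted p under 0.05 in edgeR (20.4% of all genes had), and edgeR called 1.27% of 15465 genes, 0.802% as higher. For DESeq2 and limma-voom the share of all genes called is not given here, so their 0 calls have no background. The ranges of the groups overlapped for each member, as against 2.13% of genes that lay higher without overlap in CPM and 0.905% that lay lower. All 10 estimates were negative, with a median of -0.52, beside -0.03 over all genes and -0.70 over the pan-neuronal genes, of which 0 of 12 were positive. The largest difference was that of Trpm8, at -1.11 ± 0.79 (95% interval -2.85 to 0.62; adjusted p = 0.456), followed by Th at -1.09 ± 1.04, which ran from -1.57 to -0.19 with 1 library left out. Calca was at -0.16 ± 0.94, with an interval of -2.22 to 1.90, so that a change of several fold in either direction was not excluded with these libraries. Without 1191 its interval was -1.08 to 1.29. Single libraries set these signs: without 1203 the estimates of Calca, Calcb, Tac1, Trpv1, Trpa1 and Mrgprd became positive (0.42, 0.62, 0.48, 0.10, 1.01 and 0.12), and without 1191 those of Calca and Tac1 did (0.10 for both). Without 1203 Th was at -0.19, Sst at -0.03 and P2rx3 at -0.07. The background was as fragile, with 2 genes called without 1191, both higher, or 0.013% of those tested.

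**Figure D3:**
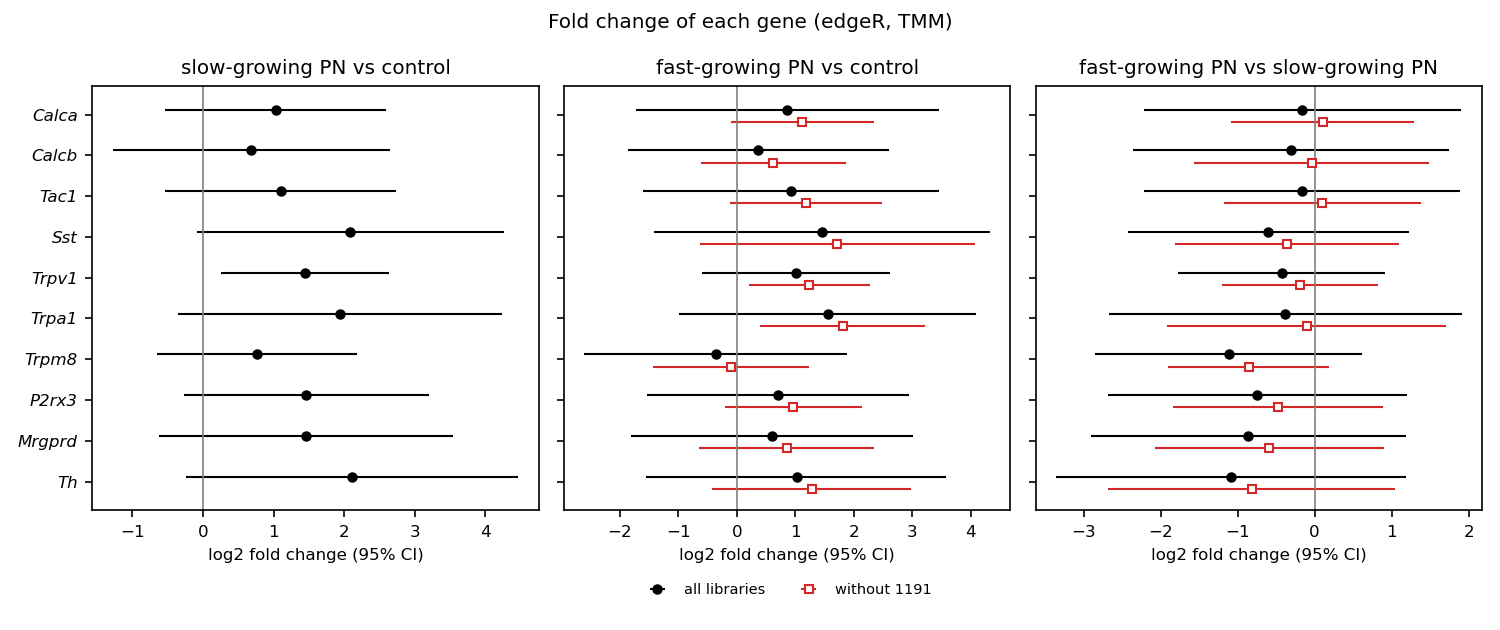
Log2 fold change of each member with its 95% interval in the 3 comparisons (edgeR with TMM scaling; filled circles, all libraries; open squares, without 1191). Intervals cross 0 for each member in each comparison, except Trpv1 in slow-growing PNs and, without 1191, Trpv1 and Trpa1 in fast-growing PNs, none of which passed the adjusted threshold.

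What the members shared across libraries was larger than what separated the groups. Library 1203 was the highest for 9 of the 10 members and 1191 was the lowest for all 10 (tied with DRG3 at 0 counts for Sst). The 12 pan-neuronal genes took the same course, with a mean log2(CPM + 1) of 9.34 in 1203, 8.50 in 1071 and 8.45 in 1202 at the top, and 6.40 in DRG5 and 1.83 in 1191 at the bottom. The summed level of the members was 12.2% to 14.7% of the summed pan-neuronal level in controls, 11.3% to 19.6% in slow-growing PNs and 10.01% to 26.1% in fast-growing PNs, a spread far below the change of either sum, which ran from 5.06 to 2570 CPM for the members. The low end of that range was 1191. Without it the members' sum ran from 236 CPM in DRG5 to 2570 CPM in 1203, and the share in fast-growing PNs from 12.5% to 26.1%.

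**Figure D4:**
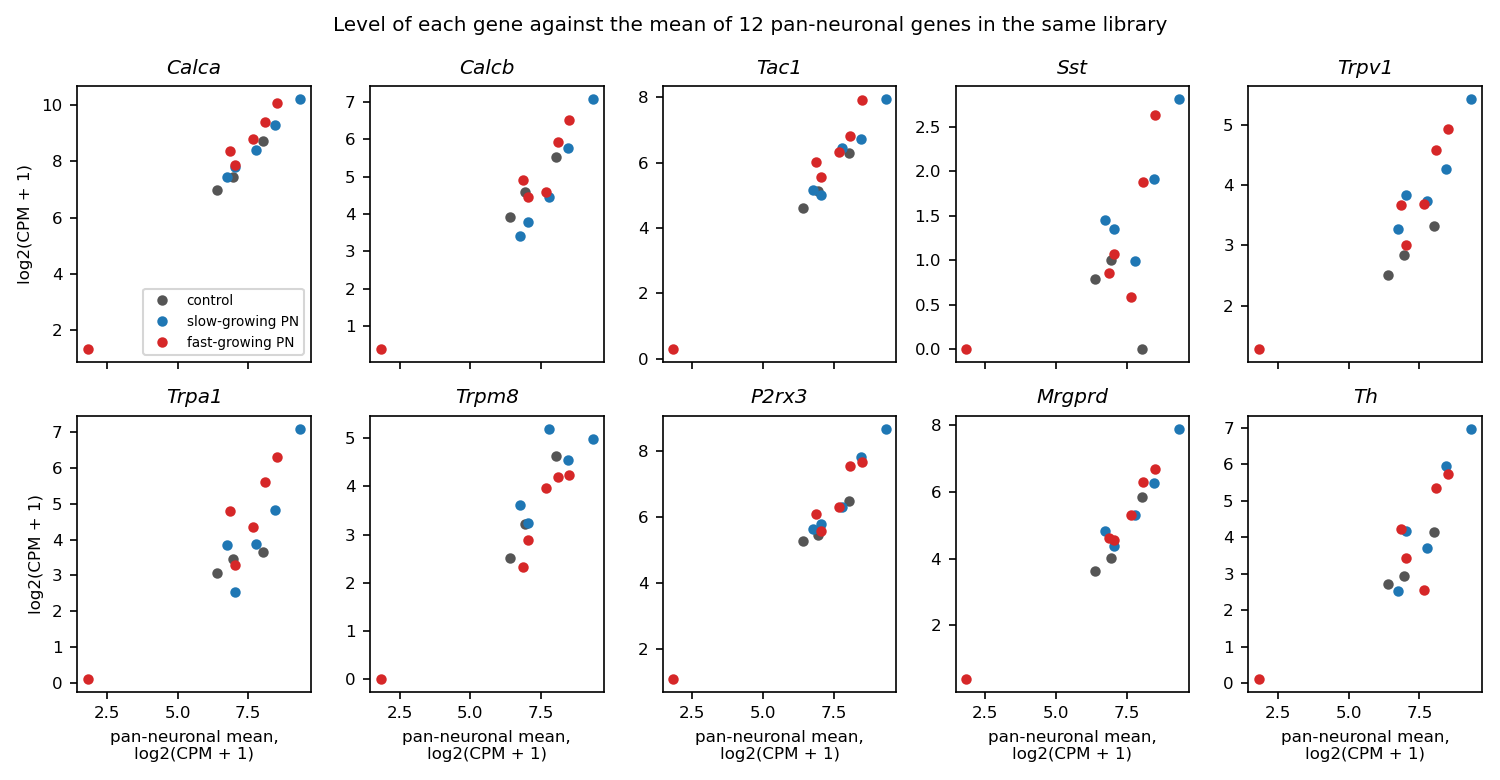
Log2(CPM + 1) of each member against the mean log2(CPM + 1) of 12 pan-neuronal genes in the same library (1 point per library, 14 in all, colored by group). Members rise with the pan-neuronal mean from 1191 at the lower left, where that mean is 1.83, to 1203 at 9.34.

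Subtracting the pan-neuronal mean of each library reduced the spread of 9 of the 10 members within groups, over the 13 libraries without 1191. The SD of Calca fell from 0.98 to 0.20 on the log2 scale, that of Tac1 from 1.03 to 0.30, that of Mrgprd from 1.20 to 0.41 and that of P2rx3 from 1.07 to 0.36. Th kept the largest spread after subtraction, at 0.87 from 1.45, followed by Sst, at 0.78 from 0.73, and Trpa1, at 0.77 from 1.30. Among all 16283 genes the subtraction reduced the SD for 9.7%, and the median SD went from 0.34 to 0.93. These values describe the libraries and carry no test.

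Levels relative to the pan-neuronal mean were then compared between groups by an exact two-sided permutation of libraries, a comparison chosen after the data had been seen and made without 1191, in which the members had between 0 and 20 counts. With 5 libraries against 3 controls the smallest p this test can give is 0.0357. No member reached it in slow-growing PNs against controls: the nearest was Calca, at 0.76 ± 0.10 (SD, n = 5) against 0.60 ± 0.09 (n = 3; exact p = 0.0714). This depended on the reference: relative to the median of the 12 genes, Calca (0.52), Tac1 (0.52), Trpv1 (0.82) and P2rx3 (0.72) were higher without overlap, at the smallest exact p of 0.0357 (adjusted p = 1 over all genes). On that scale 2.43% of all genes lay higher without overlap and 1.06% lower, as did 5 of the 12 pan-neuronal genes themselves, all higher; relative to the mean, 0.78% of genes lay higher and 2.7% lower. In fast-growing PNs Calca was at 1.26 ± 0.30 (n = 5) above the pan-neuronal mean, with each of the 5 PNs, from 0.84 to 1.56, above the 3 controls, from 0.50 to 0.69 (difference 0.67, exact p = 0.0357, 0.362 when adjusted over all genes). Tac1 was at -1.11 ± 0.37 in fast-growing PNs and -1.77 ± 0.04 in controls, again without overlap (difference 0.67, exact permutation p = 0.0357, adjusted 0.362).

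With the mean as reference the fast-growing and control libraries overlapped for the other 8 members, and neither peptide gene passed after adjustment. With the median of the 12 genes as reference, Trpv1 (0.83), Trpa1 (1.22), P2rx3 (0.65) and Mrgprd (0.74) reached the exact p of 0.0357 as well (adjusted p = 0.388 over all genes), so that 6 members and 4 of the 12 pan-neuronal genes lay higher without overlap, beside 3.64% of all genes (5.55% lay lower). Of all 16283 genes, 2.01% lay higher without overlap in this comparison and 7.86% lower. The reference genes set the scale for reading a difference of this size: 5 of the 12 pan-neuronal genes themselves did not overlap, with Snap25 higher by 0.47 and Stmn2 by 0.33 relative to the mean of the 12, and Stmn3, Prph and Rbfox3 at -0.38, -0.37 and -0.37. Among 8 other peptidergic genes, Gfra3, the artemin receptor, was 1.06 higher, Adcyap1, the peptide PACAP, was 0.61 higher and Prokr2 was 0.49 higher without overlap, again relative to the mean. With any further library left out the exact p of Calca and Tac1 rose to between 0.0571 and 0.0952, the smallest those sizes allow for 4 against 3 and 5 against 2, and their differences stayed between 0.60 and 0.78 and between 0.54 and 0.76. Including 1191 the difference of Calca was 0.37 (exact p = 0.5).

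Against slow-growing PNs, with 5 libraries on each side, Calca was 0.50 higher in fast-growing PNs (exact permutation p = 0.0159) and Tac1 was 0.50 higher (p = 0.0397), with overlap for both (without overlap lay 0.0614% of genes higher and 0.0491% lower), and adjusted p-values of 0.999 over all genes. Of the 12 pan-neuronal genes, 7 were positive relative to their own mean and 2 had an exact permutation p under 0.05. These were Tubb3, 0.41 higher (exact p = 0.0159), and Stmn2, 0.25 higher without overlap (exact p = 0.00794). With 1 further library left out, Calca stayed under 0.05 in 10 of 10 fits (exact p from 0.0159 to 0.0317) and Tac1 in 3 of 10 (exact p from 0.0159 to 0.0794). Including 1191, Calca was 0.21 higher (exact p = 0.623) and Tac1 0.43 (exact p = 0.0563), and with the median as reference Tac1 was 0.40 higher (exact p = 0.0556). With that reference Calca was 0.40 higher without overlap (exact p = 0.00794, the smallest possible; adjusted p = 1), beside 0.0307% of genes higher and 0.0491% lower. Calcb was 0.62 higher (exact p = 0.0873; 0.77 with exact p = 0.0476 including 1191) and Trpm8 was at -0.55 (exact p = 0.167). The other 6 members differed by between -0.17 (Th) and 0.67 (Trpa1), with exact p-values from 0.222 to 0.968.

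**Figure D5:**
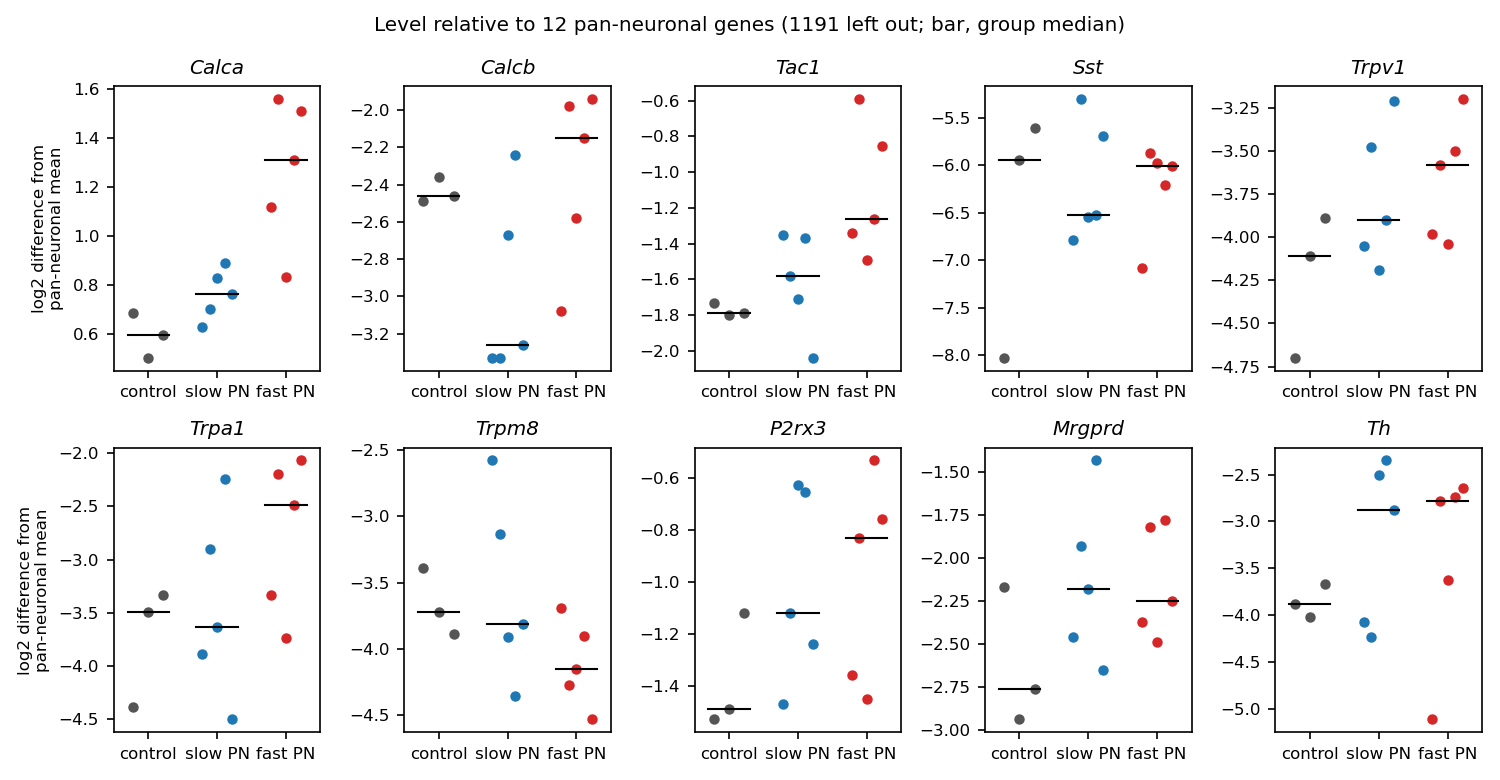
Log2 difference of each member from the mean of 12 pan-neuronal genes in the same library, by group (3 control, 5 slow-growing PN and 5 fast-growing PN libraries, 1191 left out; the bar is the group median). Calca and Tac1 lie higher in each fast-growing PN than in each control, and the groups overlap for the other 8 members.

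The ratio of Calca to Calcb counts does not depend on scaling, and was computed after the levels had been seen. It was 9.21, 7.57 and 8.85 in controls and 16.3, 17.9, 11.6, 8.83 and 17.5 in slow-growing PNs. In the fast-growing PNs other than 1191 it was 19.1, 11.7, 11.2, 11.1 and 11.3, and in 1191 it was 5, from 20 and 4 counts. Leaving out 1191, fast-growing PNs lay above the controls, and 1203 was the 1 slow-growing PN within the control range; no test was made.

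The wider sensory neuron lists, chosen with earlier results of these data known, were read beside the members. In slow-growing PNs against controls edgeR called 0 of 8 other peptidergic genes, 0 of 15 nonpeptidergic and itch neuron genes (Plxnc1 at 1.43 ± 0.73) and 0 of 6 C-low-threshold mechanoreceptor genes (Zfp521 at 0.67 ± 0.22). At an unadjusted p under 0.05 these counts were 0, 6 and 2, beside 30.3% of all genes. Over all lists together, tissue markers included, edgeR called 6 genes and DESeq2 23, while edgeR with muscle and fat covariates called 0. The covariate fit can hardly separate the groups from muscle and fat RNA, so its 0 says little about stability. EdgeR called 1 of 16 nociceptor transcription factors and channels, beside 4.12% of all genes called higher: Trpm3, a heat-gated channel, which rose by 2.03 ± 0.55 (adjusted p = 0.0492) and lost the call in 7 of 8 fits that left out 1 library. None of 11 large-diameter neuron genes (Nefh at 0.54 ± 0.55), 6 tested receptors of the member peptides (Calcrl, a CGRP receptor component, at -0.37 ± 0.32) or 5 opioid and cannabinoid receptors (Cnr1 at 1.41 ± 0.59) was called, with unadjusted counts of 4, 1 and 1.

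In fast-growing PNs against controls, 4 of 15 nonpeptidergic and itch neuron genes rose, beside a background of 14.8% of genes called higher. The 3 largest were Nppb, a peptide of itch neurons, at 3.78 ± 1.25 (adjusted p = 0.0450, from 0, 0 and 0.313 CPM in controls), the leukotriene receptor Cysltr2 at 2.43 ± 0.82 (adjusted p = 0.0468), and Osmr, which fibroblasts also express, at 1.30 ± 0.17. The controls held 3 counts of Nppb in all, and its log2 fold change ran from 3.17 to 7.41 with 1 library left out. Nppb and Cysltr2 each lost the call in 7 of 9 fits that left out 1 library. With muscle and fat covariates edgeR called 0 genes of all lists in this comparison. The fat RNA did not overlap between these groups, so that fit can hardly separate group from covariates. Its share of all genes called is not given here, so the 0 has no background. Trpm3 rose by 2.57 ± 0.39 and the factor Runx1 by 0.87 ± 0.15, as 2 of 16 factors and channels. Without 1191, 5 of 15 nonpeptidergic and itch neuron genes rose, with Nppb at 4.01 ± 1.11, Cysltr2 at 2.64 ± 0.70 and Nts, the precursor of neurotensin, at 1.68 ± 0.44 (adjusted p = 0.0186) as the largest, and 3 of 16 factors and channels, with Trpm3 at 2.39 ± 0.33, the potassium channel Kcnk18 at 1.62 ± 0.44 (adjusted p = 0.0225) and Runx1 at 0.91 ± 0.15.

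Further calls were Zfp521 at 1.02 ± 0.13 as 1 of 6 C-low-threshold mechanoreceptor genes, and Etv1 at 1.54 ± 0.26 and Ntrk2 at 1.32 ± 0.19 as 2 of 11 large-diameter neuron genes, among which Pvalb, also a muscle gene, fell by 4.19 ± 0.81. Several of these genes did not follow the neuronal RNA: in 1191 Trpm3 was at 213 CPM, Osmr at 195, Zfp521 at 114 and Ntrk2 at 454.5 CPM, the highest or second highest of the fast-growing PNs, and Etv1 was at 190 CPM, within their range. Gfra2 and Runx1, also called, were at 76.6 and 86.9 CPM or more in each fast-growing PN, above the controls (41.5 to 65.9 and 47.7 to 59.7 CPM). Nppb was at 0.227 and Cysltr2 at 2.12 CPM in 1191, the lowest of the fast-growing PNs. Both values lay within the control ranges (0 to 0.313 and 1.12 to 2.93 CPM). With all libraries 0 of 8 other peptidergic genes and 0 of 5 opioid and cannabinoid receptors (Cnr1 at 0.32 ± 0.68) were called by edgeR, and 0 of each had an unadjusted p under 0.05.

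Without 1191 these counts changed for several lists, in a fit that called 14.8% of all genes higher and 17.4% lower and gave 43.1% an unadjusted p under 0.05. Gfra3 rose by 1.49 ± 0.38 (edgeR adjusted p = 0.0161), as 1 of 8 other peptidergic genes, and 2 of the 8 had an unadjusted p under 0.05. The C-low-threshold mechanoreceptor genes went from 1 to 4 of 6 called, the largest being the vesicular glutamate transporter Slc17a8 at 1.65 ± 0.55 (adjusted p = 0.0475), the ADP receptor P2ry1 at 0.98 ± 0.26 (adjusted p = 0.0197) and Zfp521 at 0.97 ± 0.13. With 1191 included, the lowest fast-growing PN was at 3.36 CPM for Slc17a8, 35.4 for P2ry1 and 13.2 for Cacna1h, the other called gene. Control ranges were 1.56 to 2.74, 27.1 to 47.2 and 9.49 to 16.0 CPM, so these RNAs did not fall to near 0 in 1191. The uncalled Fam19a4 and Cdh9 went down to 0 and 0.605 CPM. Which cells carried these RNAs was not tested. The large-diameter neuron genes kept 2 higher and 1 lower (Etv1 at 1.56 ± 0.27, Ntrk2 at 1.28 ± 0.19 and Pvalb at -4.01 ± 0.81), and the opioid and cannabinoid receptors stayed at 0 of 5 (Cnr1 at 0.56 ± 0.36), with 0 at an unadjusted p under 0.05.

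Of the receptors for the member peptides, Tacr1, which binds substance P, rose in fast-growing PNs by 3.0 ± 0.73 against controls (edgeR adjusted p = 0.0123), as 1 of 6 tested, and by 2.61 ± 0.61 without 1191 (adjusted p = 0.0117). In each of these fits 14.8% of all genes were called higher. Its level was 0.429, 2.75 and 1.46 CPM in controls, 2.89, 7.29, 2.25, 3.39 and 4.53 CPM in slow-growing PNs, and 13.8, 6.14, 11.2, 28.2, 5.05 and 13.6 CPM in fast-growing PNs 1053, 1071, 1179, 1191, 1214 and 1216. Fast-growing PNs and controls did not overlap, while 17.8% of all genes lay higher without overlap in this comparison. Library 1191, which had 3 counts of Tac1, was the highest in Tacr1. Neither limma-voom nor the edgeR fit with muscle and fat covariates called Tacr1, the latter a fit that can hardly separate the groups from the covariates. Between fast- and slow-growing PNs no gene of these sensory lists or receptors was called by edgeR (Tacr1 at 1.67 ± 0.46, adjusted p = 0.0788; 1.27 ± 0.40 and 0.152 without 1191), with up to 4 genes of a list at an unadjusted p under 0.05, beside 20.4% of all genes.

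The genes whose pattern was most like that of the members were named by the Pearson correlation of log2(CPM + 1) with the mean z-score of the 10 members over 14 libraries, as a description. They were Gnal (r = 0.994), an olfactory G protein subunit, Ret (0.994), the receptor of GDNF family ligands, Synpr (0.993), a synaptic vesicle protein, Pou4f1 (0.992), the sensory neuron factor Brn3a, and Elavl3 (0.992), a neuronal RNA-binding protein. Over the 13 libraries without 1191 the values were 0.984 to 0.992. The libraries share the neuronal content described above, and 2 of the 5 remained in the top 5 with a pseudocount of 0.5.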

How the data were processed

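RNA was taken from frozen PNs and control DRGs, 1 mouse per library, and libraries were made with the Ovation RNA-Seq System v2. The submitters' processing notes name CASAVA 1.4, FastQC 0.11.0, TopHat2 2.0.9, featureCounts 1.5.2, edgeR 3.16.5 and mm10; the strand setting of the counting is not given in the sources used here. The deposited values are raw counts per gene, whole numbers that the authors did not normalize. The members and the gene lists were chosen with earlier results of these data known.

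Each comparison was fitted on its own libraries with edgeR 4.0.16 in R 4.3.3 (filterByExpr, TMM, quasi-likelihood test), with Benjamini-Hochberg adjustment over all genes tested and a threshold of 0.05. The standard errors and intervals of edgeR fold changes were computed back from the fold change and the F statistic of this test. They therefore restate its p-value. DESeq2 1.42.0 and limma-voom (limma 3.58.1) were alternatives, with other scalings, filters, covariates and each library left out. CPM in the text used TMM factors over 14 libraries. All 10 members passed the filter on low counts in each comparison. Genes of a list were named if called, up to 3 by size of change per list; where none was called, the gene highest in CPM was named, except 1 that is not reported here. Levels relative to 12 pan-neuronal genes, log2(CPM + 1) minus their mean, were compared by an exact two-sided permutation test over libraries. Loci and lengths came from GENCODE vM21, which held 22750 of the 24062 symbols as written and 922 under a former name. On simulated counts with 200 genes changed 2 log2 units, edgeR recovered 59.5% for slow-growing PNs against controls, 76.0% for fast-growing PNs against controls and 78.5% between PNs. The changed genes were drawn at random and shared no neuronal content. Over 14 libraries the SD of log2(CPM + 1) within groups ran from 0.797 (Sst) to 2.28 (Calca) among members. Its median was 0.347 over 16283 genes, so these rates do not give the power for the members. Control and PN preparation batches are not given in the sources used here and cannot be told apart from the groups; p-values measure the spread between these libraries.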

Additional observations from a re-analysis of the deposited data

Results flagged for a closer look

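Among fast-growing PNs, library 1191 lay far below the other 5 for 5 members, by Dixon's test on log2(CPM + 1), in which the gap to the nearest library is divided by the range. Its value was 1.33 for Calca (gap 0.75 of the range), 0.381 for Calcb (0.664), 0.295 for Tac1 (0.69), 1.09 for P2rx3 (0.683) and 0.381 for Mrgprd (0.662). These were 5 of 20 groups tested, where chance gives about 1 in 20, and the 5 are not independent, since they come from 1 library. The summed pan-neuronal level of 1191 was 50.6 CPM. Its part in each comparison is given by the values without it.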

How the results depend on the processing

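Of 520 refits of the members, 494 kept their direction and side of the threshold, 25 reversed and 1 gained a call. The cause of these changes was not tested. The 520 include refits with pan-neuronal scaling, which recovered 0% to 1% of changed genes on simulated counts. A side of the threshold kept under that scaling says nothing about stability, and a side kept in the covariate fits against controls says little. With 3 controls, and Sst at 0 counts in DRG3 and 1191, single libraries weigh on each comparison. No paired analysis was possible because the groups share no replicate numbers. DESeq2 called 1 member (Trpv1, slow-growing PNs against controls) and 22.5% of all genes in that comparison, and 0 members were called with any library left out.

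Genes of all lists called numbered 6 for slow-growing PNs against controls, and became 23 with DESeq2, 13 in 1 fit over 14 libraries, 2 with the length and GC trend removed, 0 with pan-neuronal scaling and 0 with muscle and fat covariates. For fast-growing PNs against controls 36 became 0 with pan-neuronal scaling and 0 with muscle and fat covariates. Between PNs 1 became 16 with DESeq2, 3 in the fit over 14 libraries and 0 with RLE factors, no filter, limma-voom, pan-neuronal scaling or the covariates. Leaving out 1 library gave 0 to 8, 26 to 43 and 0 to 8 list genes in the 3 comparisons. On simulated counts the pan-neuronal scaling recovered 0% to 1% of changed genes, so its lack of calls says nothing about stability. The covariate fits against controls can hardly separate the groups from muscle and fat RNA, so their 0 calls say little about stability.

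Pan-neuronal scaling turned Calcb to -0.459 in slow-growing PNs against controls, and between PNs turned Calca to 0.339, Calcb to 0.554, Tac1 to 0.33, Trpv1 to 1.19, Trpa1 to 0.423, P2rx3 to 0.0365 and Ncmap, a myelin gene, to 1.51. In fast-growing PNs against controls limma-voom turned Calca to -0.28, Calcb to -0.559, Tac1 to -0.261, P2rx3 to -0.214, Mrgprd to -0.198 and Th to -0.224, and the covariates turned Trpm8 to 1.25. With 1 library left out, Calcb ran from -0.209 to 1.23 in slow-growing PNs against controls and from -0.102 to 0.901 in fast-growing PNs, and Trpm8 from -0.699 to 0.518. Between PNs Calca ran from -0.57 to 0.423, Calcb from -0.752 to 0.624, Tac1 from -0.709 to 0.48, Trpv1 from -0.743 to 0.0991, Trpa1 from -0.885 to 1.01 and Mrgprd from -1.26 to 0.117.

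Relative to pan-neuronal genes, all alternatives were chosen after seeing the data. The median of the 12 genes in place of their mean took 4 members to an exact p of 0.0357 in slow-growing PNs against controls (Calca 0.522, Tac1 0.518, Trpv1 0.824, P2rx3 0.716) and 4 more in fast-growing PNs (Trpv1 0.833, Trpa1 1.22, P2rx3 0.654, Mrgprd 0.736), and left Tac1 at 0.404 (exact p = 0.0556) between PNs. Including 1191, Calca was at 0.373 (exact p = 0.5) against controls, and between PNs Calca at 0.206 (exact p = 0.623), Tac1 at 0.43 (exact p = 0.0563) and Calcb at 0.77 (exact p = 0.0476). Between PNs the median of the 12 genes turned P2rx3 to -0.0621, and including 1191 turned Sst to 0.672, Mrgprd to 0.105 and Th to 0.106. With 1 library left out, Sst ran from -0.395 to 0.815, Trpa1 from -0.0243 to 0.567 and Trpm8 from -0.134 to 0.31 in slow-growing PNs against controls, and Calcb from -0.0104 to 0.275 and Sst from -0.456 to 0.755 in fast-growing PNs. Between PNs Sst ran from -0.216 to 0.157, Trpv1 from -0.0083 to 0.246, P2rx3 from -0.0774 to 0.153, Mrgprd from -0.138 to 0.165 and Th from -0.424 to 0.263.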
